A study of Mus musculus with 10 samples.

Results

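Neural precursor genes were followed on expression arrays of mouse ES cells in which the lncRNA *Hottip* or its neighbour *Hoxa13* was targeted for activation. The set holds 8 genes, *Sox1*, *Sox3*, *Pax6*, *Nes*, *Zic1*, *Zic2*, *Pax3* and *Hes5*, and every non-control probe whose transcript accession belongs to one of them was taken, which gave 12 probes (22 spots on each array) out of 55681 probes. For 5 genes at least 1 probe was bright enough to be tested (6 probes); *Nes*, *Hes5* and *Pax3* were not. The question was whether the lower *Sox1* signal seen after *Hottip* targeting is shared by the other genes of the set. None of the 5 tested genes was called in any comparison, where 0.0914% to 0.827% of all tested probes were called (limma). With *Hottip* gRNAs 3 of the 5 tested genes were below the control (*Sox1*, *Sox3* and *Pax6*) and 2 above it (*Zic1* and *Zic2*). By each gene's brighter probe the arrays were apart from the control for *Sox1* (lower) and *Zic1* (higher), as they were for 14.9% of all tested probes. For *Zic1* this rests on 3 *Hottip* gRNA arrays, since 1 spot was left out as an outlier. A second *Pax6* probe was well above background on no *Hottip* gRNA array.

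The cells were E14 ES cells of 129/Ola background, grown on gelatin in serum medium that held Lif, the cytokine used to maintain ES cell self-renewal. Cells of one group received a pool of 5 gRNA plasmids against the *Hottip* promoter together with dCas9-VP160, in which the VP160 activation domain is carried to DNA by a Cas9 that no longer cuts (4 arrays). Cells of another group received 5 gRNA plasmids against the *Hoxa13* promoter with the same dCas9-VP160 (3 arrays), and the control received non-targeting gRNAs with dCas9 alone (3 arrays). The study describes that dCas9 as having no VP160, so each difference from the control is also one between cells with and without the activation domain. All groups were selected with 2 µg/ml puromycin for 24 hrs and RNA was taken 48 hrs after transfection, so the cells are a transient, selected population and not a clone.

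Neural precursors arise from pluripotent cells when BMP signalling is held off, and they are recognised by SoxB1 and Pax transcription factors, by Zic zinc finger factors and by the Notch effector *Hes5*. *Sox1* and *Sox3* are SoxB1 factors closely related to *Sox2*, which ES cells also use; *Sox1* is among the earliest genes of the neural plate, whereas *Sox3* and *Zic2* can also be present in pluripotent cells. *Nes* encodes nestin, an intermediate filament protein and not a transcription factor, so the set is one of neural precursor genes rather than of factors alone.

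Each array had 59305 spots that were not controls, and between 32.9% and 42.5% of them were well above background, the scanner software's test of a spot against its background. Levels below are log2 of the background-subtracted signal minus the 75th percentile of the same array, so a level of 0 is the signal of the spot at that percentile. Levels of different probes cannot be set against each other. These are bulk RNA levels, in which fewer cells of a type and less RNA per cell cannot be told apart. *Hottip* itself was not analysed here. The probe for *Hoxa13* lay between 3.50 and 4.49 on the 4 *Hottip* gRNA arrays, but on the 3 arrays labelled *Hoxa13* gRNAs it lay between -4.52 and -3.67 and was not well above background on any of them, nor on a control array (-5.80 to -2.74). The probe therefore does not show activation of the targeted gene on the arrays labelled *Hoxa13* gRNAs, and in what follows *Hoxa13* gRNAs names the arrays so labelled, whose directions rest on the label. 8 arrays shared 1 slide, and the other slide held only *Hoxa13* gRNA replicates 1 and 2. Control replicate 3 stood apart with 7.28% of spots marked as outliers (0.312% to 5.73% on the other arrays). On *Hottip* gRNA replicates 3 and 4 the scanner software made no correction for trends across the array and gave many dim spots 1 floor value, so levels of dim probes have no order there.

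*Sox1* had the clearest pattern of the set. Its brighter probe (A_55_P2012056) was well above background on all 10 arrays. On the *Hottip* gRNA arrays its level was -0.45, -0.66, -0.63 and -1.23. On the control arrays it was 0.80, 0.24 and 1.91. On the arrays labelled *Hoxa13* gRNAs it was 1.50, 1.05 and 0.61. Every *Hottip* gRNA array was thus below every other array, and the other groups overlapped. The difference between *Hottip* gRNAs and the control was -1.73 ± 0.42 (log2, standard error, n = 4 and 3), or 3.31-fold lower, with a 95% interval from -2.65 to -0.80. It did not pass the threshold after adjustment over all 21881 probes tested (limma, adjusted p = 0.118). The lower *Sox1* level on these same arrays was known when the set was formed, so its values are a description and not independent evidence. Against the arrays labelled *Hoxa13* gRNAs the difference was -1.80 ± 0.42 (3.48-fold lower, limma, adjusted p = 0.113). Between the *Hoxa13* gRNA and control arrays it was 0.07 ± 0.45, with an interval from -0.92 to 1.06 (limma, adjusted p = 0.952).

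The median of the spots surrounding the *Sox1* spot was higher by 0.42 with *Hottip* gRNAs than with the control. Over all probes, dim ones included, the median difference was 0.33, so most of that value was not particular to this place on the array. The second *Sox1* probe (A_55_P2012051) was dim: it was well above background on control replicate 1 and *Hoxa13* gRNA replicate 2 and on no *Hottip* gRNA array, and on *Hottip* gRNA replicates 3 and 4 it was at the floor. Its level ranged from -2.63 to -2.14 in the control, from -3.59 to -2.11 with *Hoxa13* gRNAs and from -4.68 to -2.57 with *Hottip* gRNAs. It was below the filter of 3 arrays and was not tested.

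The promoter of *Sox1* is shown because ES cells hold high *Pou5f1*, a POU factor that binds the octamer ATGCAAAT, and this element lies at the start of *Sox1*. Sequences are from RefSeq (GRCm38.p6), 5′ to 3′ on the strand of the gene, and capitals mark the octamer. The first line gives the 250 bases before the *Sox1* start, chr8:12395269-12395518, plus strand. The second line gives 30 bases just after the start, chr8:12395526-12395555, with the octamer from base 19 of the transcript. The third line gives the 250 bases before the start of *Zic1*, the tested gene with the largest difference in the opposite direction, chr9:91365769-91366018, minus strand.
Sox1 upstream: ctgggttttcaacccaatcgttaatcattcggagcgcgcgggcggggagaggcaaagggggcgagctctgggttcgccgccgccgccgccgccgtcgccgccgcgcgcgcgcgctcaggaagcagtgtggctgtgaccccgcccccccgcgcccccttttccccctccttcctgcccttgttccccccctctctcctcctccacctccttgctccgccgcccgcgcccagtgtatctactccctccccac
Sox1 octamer: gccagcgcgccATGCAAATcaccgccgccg
Zic1 upstream: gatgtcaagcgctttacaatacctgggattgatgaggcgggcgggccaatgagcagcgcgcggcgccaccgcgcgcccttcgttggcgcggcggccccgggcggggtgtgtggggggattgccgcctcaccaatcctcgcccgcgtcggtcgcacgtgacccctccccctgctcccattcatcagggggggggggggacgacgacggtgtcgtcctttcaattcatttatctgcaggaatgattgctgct

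The octamer was searched on both strands (ATGCAAAT or ATTTGCAT) in the window from 250 bases before to 50 after the start. Of 32851 such windows 1.74% held it. Among the 6 windows of *Sox1*, *Zic1*, *Pax6*, *Nes* and *Hes5* it was found in that of *Sox1*. A Sox element (ACAATG, either strand, 12.6% of all windows) and an RBPJ core (GTGGGAA, either strand, 6.38% of all windows), the site of the Notch effector, were found among these windows in that of *Hes5*. Both upstream sequences shown are rich in G and C (71.2% for *Sox1* and 66.0% for *Zic1*, with a median of 52.4% over all windows). These matches describe the letters of the windows and are not evidence of binding in these cells.

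**Figure D1:**
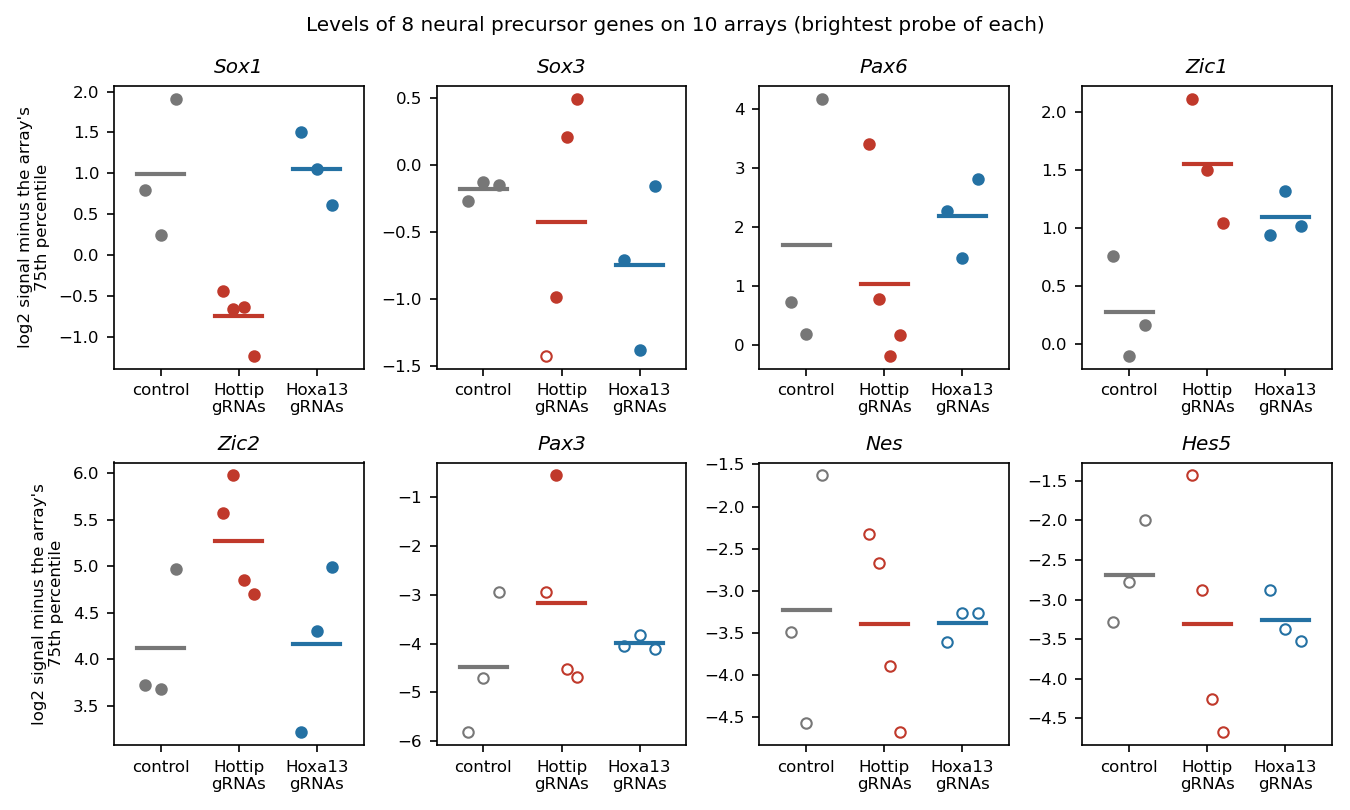
Level of the brightest probe of each gene on each of 10 arrays (y axis: log2 signal minus the 75th percentile of the array, with a separate range for each gene) by group. Points are arrays, filled where the probe was well above background and open where it was not, and bars are group means. All 4 *Hottip* gRNA arrays lie below the other 6 for *Sox1*, whereas *Zic1* and *Zic2* have their highest group means there and *Nes* and *Hes5* have open points only.

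*Sox3*, the other SoxB1 factor of the set, did not show the pattern of *Sox1*. Its levels on the *Hottip* gRNA arrays were -1.42, -0.98, 0.20 and 0.49, with the first not well above background. They were -0.27, -0.12 and -0.15 in the control. With *Hoxa13* gRNAs they were -0.71, -1.37 and -0.16. The *Hottip* gRNA arrays spanned the range of both other groups, with the 2 arrays that had no trend correction above all controls and the other 2 below them. The difference from the control was -0.24 ± 0.49 (95% interval -1.32 to 0.83, limma, adjusted p = 0.989), and it was -1.02 with only the 8 arrays that had the trend correction (limma, adjusted p = 0.477). Its sign turned with median centring (0.044) and without *Hottip* gRNA replicate 1 (0.087). With *Hoxa13* gRNAs it was -0.57 ± 0.52 against the control (limma, adjusted p = 0.631).

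*Pax6*, a paired-box factor of the forebrain, eye and neural tube, was measured by 3 spots that did not give the same picture. The brighter probe (A_55_P2022946) is the mean of up to 2 spots, and was well above background on all 10 arrays. Its level was 3.41, 0.78, -0.18 and 0.16 with *Hottip* gRNAs, 0.73, 0.18 and 4.18 in the control and 2.28, 1.47 and 2.82 with *Hoxa13* gRNAs. The groups overlapped, and the difference from the control was -0.65 ± 1.03 (95% interval -2.93 to 1.62, limma, adjusted p = 0.982). Its sign turned without control replicate 3 (0.59). The spots of the probe were far apart on some arrays: on *Hottip* gRNA replicate 1 the first read 1.22 and the second 5.61, neither marked as an outlier. Read alone, the first spot was between 0.16 and 1.22 with *Hottip* gRNAs, between 1.48 and 4.18 in the control and between 2.28 and 2.82 with *Hoxa13* gRNAs, so the *Hottip* gRNA arrays lay below the other 6 as they did for *Sox1*. The second spot did not show this order: it read 5.61, 0.82 and -1.07 on *Hottip* gRNA replicates 1 to 3, -0.39 and -1.11 on control replicates 1 and 2, and 2.28 and 0.66 on *Hoxa13* gRNA replicates 1 and 2. It was left out as an outlier on the remaining array of each group, where it read 0.68 with *Hottip* gRNAs, 3.51 in the control and 2.12 with *Hoxa13* gRNAs. The reading of the first spot was chosen after the values were seen and was not tested.

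The second *Pax6* probe (A_52_P469306) was well above background on none of the 4 *Hottip* gRNA arrays, on 2 control arrays and on 2 *Hoxa13* gRNA arrays. Its level was -2.76, -3.25, -4.52 and -4.39 with *Hottip* gRNAs, -2.29, -2.19 and -2.17 with *Hoxa13* gRNAs and -1.95, -2.52 and 7.03 in the control. The *Hottip* gRNA levels, control replicate 2 and *Hoxa13* gRNA replicate 3 were not well above background and have no sure order, and the value of 7.03 on control replicate 3 was far above all others. The control mean was at least 9.53-fold higher than the bound for the *Hottip* gRNA group (the mean over its arrays of the dimmest level well above background, or the level of the probe where that is higher), with limma, adjusted p = 0.457. Over the other control arrays alone, -1.95 (well above background) and -2.52 (not), the bound was at least 1.12-fold, so nearly all of it rests on that array. Against the arrays labelled *Hoxa13* gRNAs, which do not include that array, the bound was at least 1.13-fold (limma, adjusted p = 0.734).

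*Pax3*, the paired-box factor of the dorsal neural tube and neural crest, was not tested. Its brighter probe was well above background only on *Hottip* gRNA replicate 2 (-0.55), and the other 9 arrays lay between -5.82 and -2.94. The other probe, spotted 10 times, was well above background on no array.

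*Zic1* and *Zic2*, zinc finger factors of the dorsal neural tube, differed from *Sox1* in direction. The brighter *Zic1* probe (A_55_P2009774) read 2.11, 1.50 and 1.05 on *Hottip* gRNA replicates 2 to 4, and its spot on replicate 1 was marked as an outlier and left out. In the control it read 0.76, -0.10 and 0.17. With *Hoxa13* gRNAs it read 0.94, 1.32 and 1.02. Neither targeted group overlapped the control, and they overlapped each other. The difference of *Hottip* gRNAs from the control was 1.28 ± 0.38 (n = 3 and 3, 2.42-fold higher, 95% interval 0.43 to 2.12), which did not pass (limma, p = 0.00737, adjusted p = 0.255; two-sided exact permutation p = 0.1, the smallest that 3 against 3 allow). That of *Hoxa13* gRNAs was 0.82 ± 0.38 (limma, adjusted p = 0.424). With the outlier spot kept the *Hottip* gRNA difference was 1.65 (limma, adjusted p = 0.193). With *Hottip* gRNAs the median of the spots around the *Zic1* spot was higher by 0.34 than in the control (all arrays, replicate 1 included). That is near the 0.33 over all probes, dim ones included. The *Zic1* difference with the local median subtracted was 1.42 (limma, adjusted p = 0.448). The second *Zic1* probe was well above background on no array.

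*Zic2* (A_55_P1962523) was well above background on every array. Its level was 5.57, 5.98, 4.85 and 4.71 with *Hottip* gRNAs, 3.73, 3.68 and 4.97 in the control and 3.22, 4.30 and 4.99 with *Hoxa13* gRNAs. The *Hottip* gRNA arrays overlapped the control only through control replicate 3. The difference from the control was 1.15 ± 0.51 (2.22-fold higher, 95% interval 0.02 to 2.28, limma, p = 0.0471, adjusted p = 0.533; two-sided exact permutation p = 0.143), and without control replicate 3 it was 1.57 (limma, adjusted p = 0.263). In the log2 table deposited by the authors, the lowest *Hottip* gRNA array (15.2) was above the highest control array (14.7). The median of the spots around *Zic2* was higher by 0.29 with *Hottip* gRNAs (0.33 over all probes, dim ones included). The *Zic2* difference was 0.86 with the local median subtracted (limma, adjusted p = 0.585). Tested probes within 0.5 of the mean level of *Zic2* had a median difference of 0.22. With *Hoxa13* gRNAs the difference from the control was 0.04 ± 0.55 (limma, adjusted p = 0.976), and its sign turned with several normalizations. Tested probes within 0.5 of its mean level had a median of 0.66 in that comparison, so *Zic2* lay below probes of like brightness.

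*Nes* and *Hes5* had 1 probe each and were well above background on no array. The *Nes* probe ranged from -4.68 to -2.33 with *Hottip* gRNAs, from -4.56 to -1.63 in the control and from -3.61 to -3.26 with *Hoxa13* gRNAs. The *Hes5* probe ranged from -4.68 to -1.43, from -3.29 to -1.99 and from -3.52 to -2.88 in the same order. On *Hottip* gRNA replicate 4 both were at the floor. At this signal no difference could be detected for either gene.

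Over the 5 tested genes, each read by its brightest probe, 0 were called with *Hottip* gRNAs against the control, where 0.827% of all tested probes were called (limma), and 3 had an unadjusted p under 0.05, as did 9.18% of all tested probes. One of the 3 is *Sox1*, around which the set was formed, which leaves 2 of the 4 other genes (*Zic1* and *Zic2*). With *Hoxa13* gRNAs against the control 0 were called, as were 0.0914% of all probes, and 0 had an unadjusted p under 0.05 (12.1% of all). Between *Hottip* and *Hoxa13* gRNAs 0 were called, beside 0.516% of all probes, and 1 had an unadjusted p under 0.05 (11.3% of all). The arrays of the 2 groups did not overlap for 2 of 5 genes with *Hottip* gRNAs against the control, beside 14.9% of all tested probes. These were *Sox1* (lower) and *Zic1* (higher, over 3 *Hottip* gRNA arrays), or 1 of the 4 genes other than *Sox1*. The arrays did not overlap for 1 of 5 with *Hoxa13* gRNAs against the control (*Zic1*, beside 17.8%), and for 1 of 5 between the targeted groups (*Sox1*, beside 17.8%). The median difference over the 5 genes was -0.24 with *Hottip* gRNAs against the control (0.01 over all tested probes), 0.07 with *Hoxa13* gRNAs against the control (0.16) and 0.32 between them (-0.19). These comparisons share arrays and are not independent of each other.

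**Figure D2:**
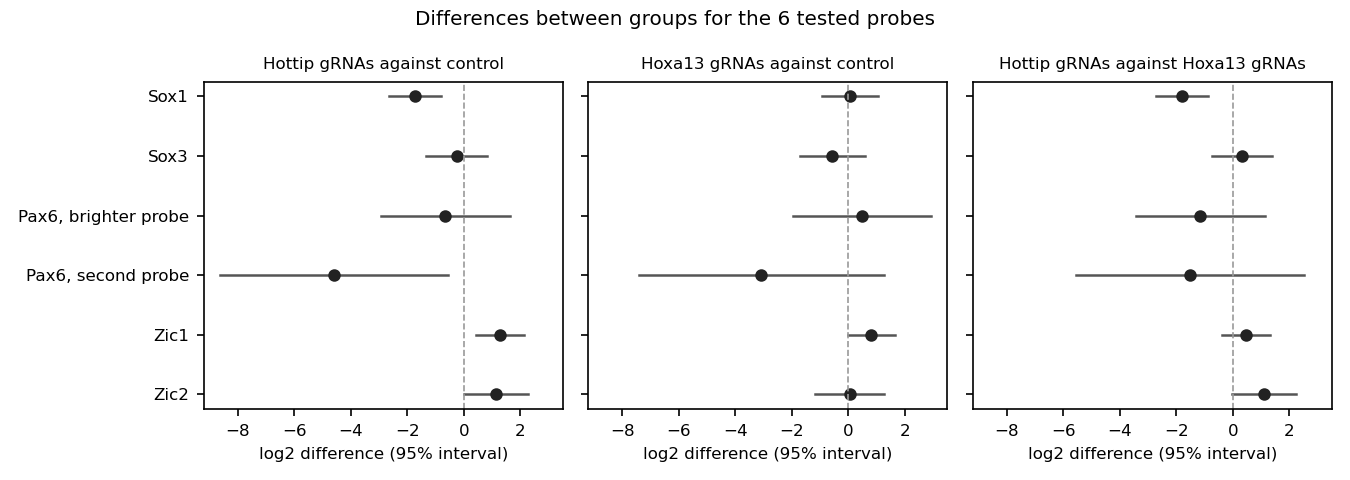
Log2 difference (x axis) with its 95% interval from the limma fit for the 6 tested probes (y axis) in each of 3 comparisons. The interval of *Sox1* lies below 0 in both comparisons of *Hottip* gRNAs and spans 0 between *Hoxa13* gRNAs and the control. For *Hottip* gRNAs against the control those of *Zic1* and *Zic2* lie above 0. In the same comparison that of the second *Pax6* probe, not well above background on any *Hottip* gRNA array, lies below 0. The intervals of that probe are the widest.

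The *Sox1* difference kept its direction under every alternative run, from -2.14 to -1.26 against the control and from -2.02 to -1.28 against *Hoxa13* gRNAs. It was called against the control when the local median of each array was subtracted (-2.14, adjusted p = 0.0187), a setting that moved the median of all tested probes from 0.01 to -0.30, and with array weights (-1.31, adjusted p = 0.0187), which gave control replicate 3 a weight of 0.149 against 0.425 to 2.85 for the other arrays (all limma). Without control replicate 3 it was -1.26 (adjusted p = 0.18). On the slide that held all 3 groups the difference from the control was -1.73 (adjusted p = 0.187) and from the 1 *Hoxa13* gRNA array there -1.36 (adjusted p = 0.98, where that lone array is assumed to vary like those of the other groups). With only the 8 arrays that had the trend correction it was -1.54 (adjusted p = 0.371).

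**Figure D3:**
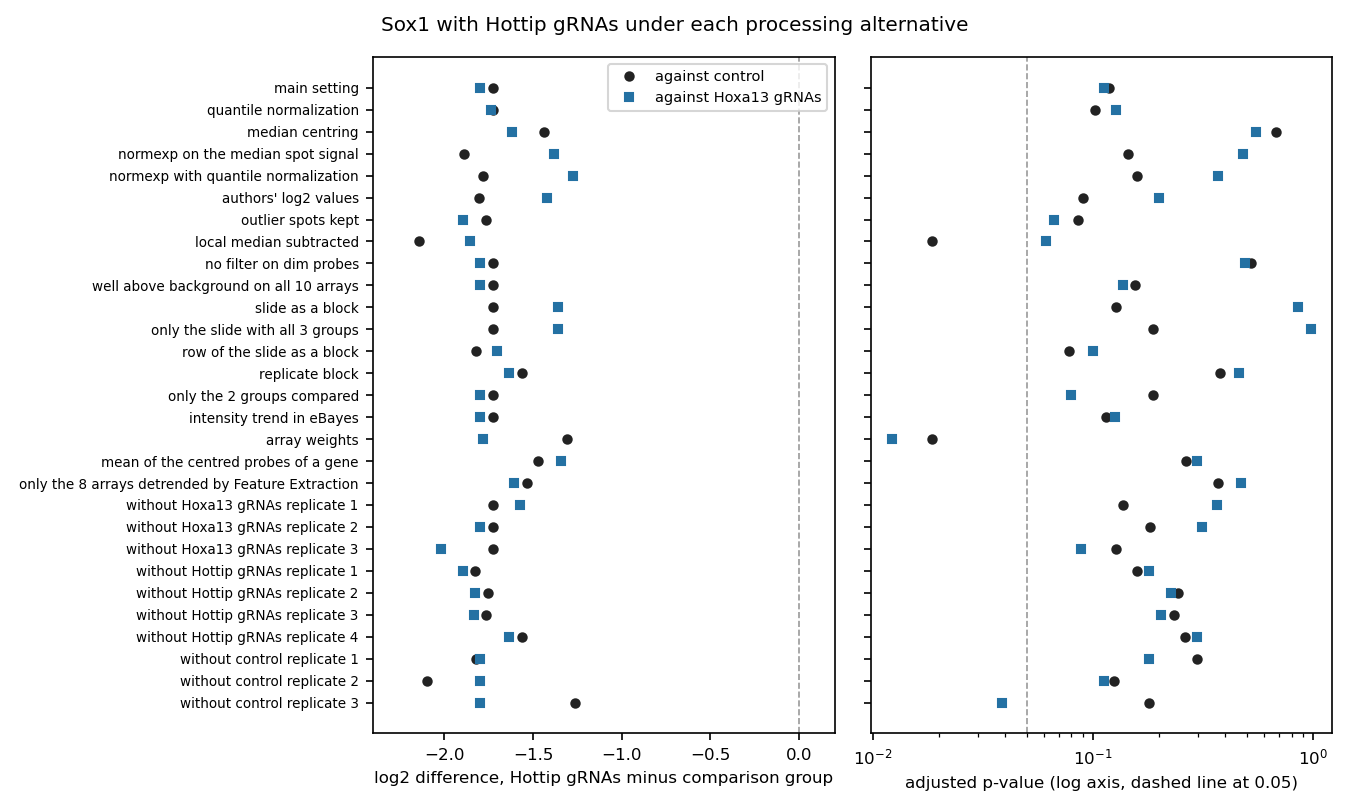
*Sox1* with *Hottip* gRNAs under the main setting and each alternative (y axis), as the log2 difference (left, x axis) and its adjusted p-value (right, x axis, log scale, dashed at 0.05), against the control (circles) and against *Hoxa13* gRNAs (squares). All differences lie below 0, and 2 settings in each comparison fall left of the 0.05 line.

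The genes around the set were read from 7 lists: paralogues of the 8 genes, regional factors of the neural plate, the Notch pathway, proneural and neuronal genes, cytoskeleton and adhesion genes of progenitors, neural crest genes and the BMP pathway. They hold 101 genes and 64 were tested. With *Hottip* gRNAs against the control 1 rose and 1 fell (0.827% of all tested probes were called), 32 differences were above 0 and 32 below, and their median was -0.01 (0.01 over all tested probes). With *Hoxa13* gRNAs against the control 0 rose and 1 fell (0.0914% of all called), with a median of 0.11 (0.16). The medians of the single lists with *Hottip* gRNAs lay between -0.35 (paralogues) and 0.15 (proneural and neuronal genes).

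The gene that rose was *Hesx1*, a homeobox repressor of the anterior neural plate that is also found in pluripotent epiblast. On *Hottip* gRNA replicates 2 to 4 its level was 1.26, 0.24 and 1.08, and its spot on replicate 1 was left out as an outlier. In the control (-5.24, -3.92 and -3.64) and with *Hoxa13* gRNAs (-5.30, -3.95 and -4.21) it was not well above background. It was at least 16.5-fold higher than in the control (limma, adjusted p = 0.00237) and at least 17.5-fold higher than with *Hoxa13* gRNAs (limma, adjusted p = 0.00301). The probe passed the filter of 3 arrays only through the *Hottip* gRNA group, where it is high, so it could enter the count of tested genes only by differing. The call was lost in 1 of 26 alternatives against the control and in 3 of 26 against *Hoxa13* gRNAs. The other regional factors gave 0 calls in 7 tested; *Pou3f1*, a POU factor of the epiblast and early neural plate, had the lowest difference of the list (-0.61 ± 0.45, limma, adjusted p = 0.836).

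The gene that fell was *Nrarp*, a target and feedback inhibitor of Notch signalling. Its level was 0.57, 0.02 and 0.54 in the control, -2.38, -2.90, -1.79 and -1.78 with *Hottip* gRNAs and -2.18, -3.19 and -2.45 with *Hoxa13* gRNAs. Both targeted groups lay below every control array, and 2 of 4 and 1 of 3 of their arrays read the probe well above background, so the sizes rest in part on signal near background. The difference from the control was -2.59 ± 0.38 with *Hottip* gRNAs (limma, adjusted p = 0.0103) and -2.98 ± 0.41 with *Hoxa13* gRNAs (limma, adjusted p = 0.0349). The comparisons share the control arrays. Of the other Notch genes tested (11), which include ligands, receptors and targets, 0 were called; *Hey1*, another target, had the largest positive difference with *Hottip* gRNAs (1.02 ± 0.42, limma, adjusted p = 0.485). The *Nrarp* call with *Hottip* gRNAs was lost in 7 of 26 alternatives and with *Hoxa13* gRNAs in 21 of 26.

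In the remaining lists no gene was called against the control. Among proneural and neuronal genes the lowest was *Neurod1*, a bHLH factor of differentiating neurons (-1.87 ± 0.37 with *Hottip* gRNAs, limma, adjusted p = 0.0734), and the highest *Stmn2*, a neuronal microtubule regulator (1.34 ± 0.42, limma, adjusted p = 0.295). The lowest of the cytoskeleton and adhesion genes was *Prom1*, the CD133 membrane protein of progenitors (-1.68 ± 0.35, limma, adjusted p = 0.0649). Of the 9 tested in that list, 7 were lower and 2 higher. With *Hoxa13* gRNAs *Prom1* was at -1.67 ± 0.38 (limma, adjusted p = 0.211). Among neural crest genes *Msx1*, a homeobox target of BMP, was highest (1.67 ± 0.38, limma, adjusted p = 0.0939) and *Twist1* lowest (-0.72 ± 0.44, limma, adjusted p = 0.743). In the BMP list *Smad6*, an inhibitory Smad induced by BMP, was highest (1.93 ± 0.37, limma, adjusted p = 0.0561) and *Id2* lowest (-1.02 ± 0.50, limma, adjusted p = 0.604). Among paralogues *Pax8* was lowest (-1.05 ± 0.42, limma, adjusted p = 0.468) and *Hes6* highest (0.38 ± 0.36, limma, adjusted p = 0.914).

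With *Hoxa13* gRNAs the highest and lowest genes of these lists were again not called, *Nrarp* apart. The highest were *Lmx1a*, a LIM factor of the roof plate (at least 2.29-fold, since no control array was well above background, limma, adjusted p = 0.399), the receptor *Notch1* (1.14 ± 0.65, limma, adjusted p = 0.47), *Stmn2* (1.41 ± 0.44, limma, adjusted p = 0.324) and *Msx1* (1.13 ± 0.41, limma, adjusted p = 0.346). *Lmx1a* passed the filter of 3 arrays only through the *Hoxa13* gRNA arrays, where it is high. Its place in the list is therefore a description and not support for that direction. The lowest were *Lhx2*, a LIM factor of the forebrain and eye (-1.14 ± 0.48, limma, adjusted p = 0.392), *Insm1*, a zinc finger factor of neuronal progenitors (-1.30 ± 0.45, limma, adjusted p = 0.334), *Twist1* (-0.81 ± 0.47, limma, adjusted p = 0.473) and *Id2* (-1.38 ± 0.60, limma, adjusted p = 0.405). Smaller extremes were *Hes6* (0.63), *Zic5* (-0.79), *Cdh2* (0.58) and the BMP inhibitor *Chrd* (0.63). Outlier spots left 3 *Hottip* gRNA arrays for *Neurod1* and *Smad6*, 2 control arrays for *Stmn2*, *Pou3f1*, *Hes6* and *Insm1*, and 2 *Hoxa13* gRNA arrays for *Id2*.

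The labelled cell type was checked with 10 ES cell markers. All were tested and were well above background on every array that gave a value (4 of them on all 10, the others after outlier spots were left out), and 0 were called in any comparison (limma, 0 with an unadjusted p under 0.05 for *Hottip* gRNAs against the control, 2 for *Hoxa13* gRNAs against the control and 1 between them). Over all tested probes 0.827%, 0.0914% and 0.516% were called in these comparisons, and 9.18%, 12.1% and 11.3% had an unadjusted p under 0.05. With *Hottip* gRNAs *Sox2* had the lowest difference (-0.54 ± 0.50, limma, adjusted p = 0.912) and *Klf4* the highest (0.84 ± 0.45, limma, adjusted p = 0.673), each over 3 *Hottip* gRNA arrays. The median difference of the list was 0.26 with *Hottip* gRNAs. With *Hoxa13* gRNAs all 10 differences were above 0, with a median of 0.73 (0.16 over all tested probes). *Nanog* was highest (1.69 ± 0.49, limma, adjusted p = 0.29). These markers were bright, with control means from 2.98 (*Klf4*) to 5.32 (*Dppa5a*). Tested probes within 0.5 of the mean level of *Zic2*, also bright, had a median difference from the control of 0.66 with *Hoxa13* gRNAs. With *Hottip* gRNAs it was 0.22. The list medians are thus near those of other bright probes.

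Trophoblast markers moved on the same arrays on which *Sox1* was low. Of the 8, 6 were tested and 4 rose with *Hottip* gRNAs against the control, where 0.827% of all tested probes were called. *Cdx2* and *Krt7* passed the filter only through the *Hottip* gRNA arrays, so the count is a description of the list and not support for its direction. *Cdx2*, which starts the trophoblast programme, was at 0.49, 0.65, 0.60 and 0.79 with *Hottip* gRNAs and was not well above background in the control (-3.81, -3.65 and -2.92), a difference of at least 13.7-fold (limma, adjusted p = 0.000382). *Gata3* rose by 2.76 ± 0.33 (limma, adjusted p = 0.00364), *Ascl2* by 2.33 ± 0.30 (3 arrays against 3, since its spot on *Hottip* gRNA replicate 1 was left out; limma, adjusted p = 0.00749), and the keratin *Krt7* was at least 3.83-fold higher (limma, adjusted p = 0.00451). The same 4 genes were higher with *Hottip* gRNAs than with *Hoxa13* gRNAs (limma, adjusted p = 0.00232 for *Cdx2*, 0.00485 for *Gata3*, 0.0174 for *Ascl2* and 0.0485 for *Krt7*). In this comparison the call was lost in 23 of 26 alternatives for *Krt7*, in 13 for *Ascl2*, in 7 for *Gata3* and in 1 for *Cdx2*. Against the control it was lost in 6 for *Ascl2*, 3 for *Gata3*, 3 for *Krt7* and 0 for *Cdx2*. The summed level of the list was 4.01 to 5.41 with *Hottip* gRNAs, 2.92 to 3.80 in the control and 3.33 to 4.79 with *Hoxa13* gRNAs, on the log2 scale of the summed signals. *Elf5* and *Hand1*, the other 2, were well above background on no array. Whether these genes have a part in the *Sox1* difference was not tested.

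Markers of mesoderm (2 of 8 tested), endoderm (5 of 8) and fibroblasts (4 of 8) gave 0 calls against the control, where 0.827% (*Hottip* gRNAs) and 0.0914% (*Hoxa13* gRNAs) of all tested probes were called, and with so few genes a count of 0 says little about them. Control replicate 3 stood apart in the endoderm and mesoderm sums: the summed level of the endoderm list was 7.08 there and 1.92 and 2.01 on the other control arrays (2.75 to 3.64 with *Hottip* gRNAs), and that of the mesoderm list 7.23 there and 0.31 and 0.48 on the others (1.14 to 2.19 with *Hottip* gRNAs). The endoderm sum there was mostly *Dab2* (6.99), whereas *Gata6* read 1.22 there and 1.15 and 0.80 on the other control arrays. Which gene gave the mesoderm sum there was not examined. The 2 tested mesoderm genes both had differences above 0 with *Hottip* gRNAs, and the others were well above background on fewer than 3 arrays. A sum can rest on 1 probe, as the endoderm sum mostly did, and does not show that a list rose. *Sox1* also had its highest level on control replicate 3 (1.91). Whether the high readings on that array have a part in the *Sox1* difference was not tested. Without that array the *Sox1* difference was -1.26. *Gata6*, an endoderm factor, was at 1.69 ± 0.35 with *Hottip* gRNAs (limma, adjusted p = 0.0587) and was higher than with *Hoxa13* gRNAs by 1.94 ± 0.35 (limma, adjusted p = 0.0423), a call lost in 19 of 27 alternatives. *Dab2* was lowest in the endoderm list (-3.31 ± 1.54, limma, adjusted p = 0.566), with 6.99 on control replicate 3, and the difference of means without that array was -0.79. *Kdr*, a receptor of early mesoderm, had the lower difference of its list with *Hottip* gRNAs (0.29 ± 0.46, limma, adjusted p = 0.982) and *Eomes* the higher (0.92 ± 0.35, limma, adjusted p = 0.431). In the fibroblast list the collagen genes *Col3a1* (1.43 ± 1.14, limma, adjusted p = 0.867) and *Col1a1* (at least 1.48-fold lower, with no *Hottip* gRNA array and 1 control array well above background, limma, adjusted p = 0.822) were highest and lowest. *Col3a1* read 3.01 on *Hottip* gRNA replicate 4 and -2.72 to -1.98, not well above background, on the others, and without replicate 4 the difference of means was 0.13.

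**Figure D4:**
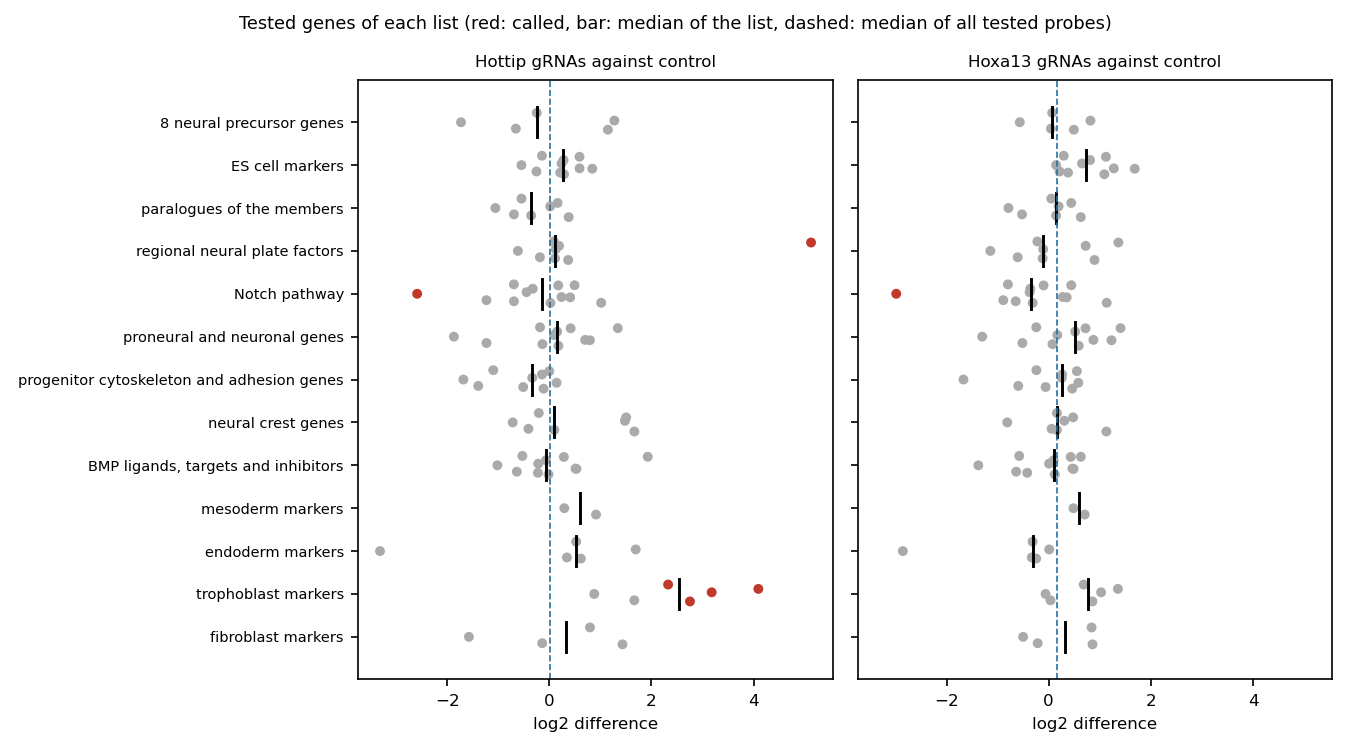
Log2 difference (x axis) of each tested gene of each list (y axis), for *Hottip* gRNAs and for *Hoxa13* gRNAs against the control. Red points were called, black bars are list medians and the dashed line is the median of all tested probes. With *Hottip* gRNAs red points are *Hesx1*, *Nrarp* and 4 trophoblast markers, and the medians of the 7 neural lists lie between -0.35 and 0.15.

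The level of *Sox1* over the 10 arrays was compared with that of 7793 genes measured on all arrays. The genes most like it by Pearson correlation were *Slc2a4* (0.99), *Sftpd* (0.98), *Calcr* (0.98), *Ldlrad4* (0.96) and *Dok1* (0.96); likeness to *Sox1* chose them, so their order over the groups is no further evidence. *Sftpd* was well above background on 4 of the 10 arrays, *Ldlrad4* on 6 and *Calcr* on 8. None was called against the control (limma, adjusted p between 0.0587 for *Calcr* and 0.329 for *Dok1*). The correlation of *Sox1* with the other tested genes of the set was -0.20 for *Sox3*, 0.58 for *Pax6*, -0.50 for *Zic1* (9 arrays) and -0.49 for *Zic2*. The arrays of a group share their treatment, so these values describe the pattern over 3 groups more than a relation between genes.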

How the data were processed

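RNA of E14 ES cells was labelled with Cy3 and hybridised to 1-colour Agilent arrays of 62976 spots (10 arrays). Per the file headers, the deposited scanner files hold intensities from Agilent Feature Extraction, whose processed signal is background subtracted, with a multiplicative detrending on 8 arrays. A further table, of log2 values, was deposited by the authors; it ranks spots as the median signal minus the background median does and has near identical quantiles in all columns; how it was centred is not given in the sources used here, and it served as an alternative. Control and outlier spots were left out, log2 of the processed signal was taken, the 75th percentile of each array was subtracted and spots of a probe were averaged. Gene symbols came through RefSeq accessions (27656 probes with 1 symbol, 28025 with none, 0 with several).

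Groups and replicates came from the sample labels. Group means over all 10 arrays were fitted with limma 3.58.1 in R 4.3.3, with Benjamini-Hochberg adjustment over probes well above background on at least 3 arrays. Probes with an adjusted p-value under 0.05 are called. The labels call the samples biological replicates. The number of arrays and the signal over background limit the precision.

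The genes and lists were chosen with earlier results of these data known. Named were all 8 genes, each listed gene that was called, and the 5 genes most like *Sox1*. Also named were the highest and lowest genes of each neural list with either set of gRNAs against the control. The highest cytoskeleton and adhesion gene with *Hottip* gRNAs was not named. For the marker lists only some of the highest and lowest genes were named. A gene was read by its probe with the highest mean. Alternatives were other scalings and background corrections, other filters, blocks for slide, slide row and replicate number, array weights, an intensity trend, a gene's mean over probes, and each array left out. Use of the detrended arrays alone, and the means of *Dab2* and *Col3a1* without 1 array each, were added after seeing the data.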

Additional observations from a re-analysis of the deposited data

Results flagged for a closer look

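Among 39 probes with 4 values in the *Hottip* gRNA group, 4 had 1 array far from the other 3 (the gap to the nearest array as a share of the range, past Dixon's critical value), and chance alone marks about 1 group in 20. None of the 4 is a probe of the 8 neural precursor genes. *Hes6* was lowest on replicate 4 (2.88, others 3.45 to 3.54, ratio 0.872). *Col3a1*, a fibroblast marker, was highest on replicate 4 (3.01, others -2.72 to -1.98, ratio 0.872) and was well above background only there. *Pax8* was highest on replicate 3 (-2.17, others -2.64 to -2.56, ratio 0.837) and of these 4 arrays was well above background only there. *Lmx1a* was highest on replicate 1 (-1.36, others -3.47 to -3.15, ratio 0.85) and was not well above background on any of the 4 arrays.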

How the results depend on the processing

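*Sox1* kept its direction in both *Hottip* gRNA comparisons under all 27 alternatives and the added one, and was called against the control with the local median subtracted (-2.14) or array weights (-1.31), and against *Hoxa13* gRNAs with array weights (-1.78) or without control replicate 3 (-1.80, adjusted p = 0.0387). Leaving out 1 array gave -2.10 to -1.26 against the control and -2.02 to -1.57 against *Hoxa13* gRNAs. The causes of changed calls were not tested. For *Hottip* gRNAs against the control the count of called genes of the set became 1 with the local median, where 98 of 21881 probes were called. It became 2 with array weights (*Sox1* and *Zic2*), where 1192 of 21881 probes were called (181 in the main setting). It was 0 in every leave-out. Between the targeted groups it was 1 with array weights, where 1115 of 21882 probes were called (113 in the main setting), and 0 to 1 over the leave-outs. The difference of *Sox1* between *Hoxa13* gRNAs and the control had no stable sign: -0.51 with normexp, -0.51 with normexp and quantile normalization, -0.39 in the authors' table, -0.29 with the local median subtracted, -0.37 with the slide as a block or with 1 slide, -0.12 with the row as a block, -0.13 with the mean of probes and -0.30 to 0.53 over the leave-outs.

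Signs also turned for *Sox3* with *Hottip* gRNAs against the control (0.044 with median centring, -0.55 to 0.087 over the leave-outs), with *Hoxa13* gRNAs against the control (0.024 with the slide block or 1 slide) and between them (-0.27 with the slide block or 1 slide, -0.45 with the 8 detrended arrays); for *Pax6* against the control with *Hottip* gRNAs (0.088 with array weights, 0.40 with the detrended arrays, though -2.62 with the mean of probes, -1.44 to 0.59 over the leave-outs) and with *Hoxa13* gRNAs (-0.26 with the row block, -1.29 with the mean of probes, -0.26 to 1.74 over the leave-outs); for the second *Pax6* probe with *Hoxa13* gRNAs (-4.76 to 0.018 over the leave-outs); for *Zic1* with *Hoxa13* gRNAs (-0.0049 with the mean of probes); and for *Zic2* with *Hoxa13* gRNAs (-0.43 quantile, -0.39 normexp, -0.74 normexp with quantile, -0.66 authors' table, -0.015 local median, -0.20 row block, -0.37 to 0.52 over the leave-outs).

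Counts of called probes moved by over 1.5 times, given as *Hottip* gRNAs against the control, *Hoxa13* gRNAs against the control and between them (181, 20 and 113 in the main setting). They were 74, 34 and 46 with median centring, 98, 13 and 44 with the local median, 57, 4 and 20 without a filter, 15, 0 and 19 with all 10 arrays above background, and 1192, 5796 and 1115 with array weights. For the comparisons of *Hottip* gRNAs with the control and with *Hoxa13* gRNAs they were 75 and 34 with normexp, 96 and 62 with normexp and quantile normalization, 94 and 61 in the authors' table, and 51 and 34 with the 8 detrended arrays. For *Hoxa13* gRNAs against the control the count was 32 with quantile normalization, 43 with the slide block, 7 with 1 slide, 11 with the row block and 9 with the intensity trend. Between the targeted groups it was 47 with 1 slide and 70 with only the 2 groups. Leave-outs gave 65 to 263, 3 to 39 and 26 to 185. The replicate number as a block gave 34, 2 and 6, and with this block *Sox1* was at -1.56 (limma, adjusted p = 0.378) against the control. Same-numbered arrays did not deviate together (correlations from -0.31 to 0.084), so the numbers do not pair the samples. *Hottip* gRNA and control arrays in the same slide row correlated from -0.11 to 0.42, and those in different rows from -0.42 to -0.07. With the row as a block *Sox1* was at -1.82 (limma, adjusted p = 0.0776) and *Zic2* at 1.03 (limma, adjusted p = 0.513) against the control. Median centring moved the median of all tested probes from 0.01 to 0.28 with *Hottip* gRNAs against the control.

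*Nes*, *Hes5* and *Pax3* were well above background on too few arrays to be tested, and whether they are not expressed or below the reach of the probes cannot be told apart.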
